A study of Mus musculus with 4 samples.

Results

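The STAT proteins (signal transducers and activators of transcription) are transcription factors that carry cytokine signals to the nucleus. The genes described are Stat2, Stat3, Stat4, Stat5a, Stat5b and Stat6, which are 6 of the 50600 genes in the count tables. They were taken by their symbols, together with every gene whose exons overlap theirs on the opposite DNA strand. That rule uses no measured value. Counts came from 4 libraries of primary mouse cells (strain C57BL/6NJ) labelled as T-helper 2, the CD4 T cells that make interleukins for defence at barriers and in allergy. The 4 libraries, biological replicates 1 to 4, form a single group with no control, treatment or second genotype. The labels share 1 donor identifier, give the sex as not collected and the age as unknown, and do not say whether the cells came from separate mice. A p-value over libraries can then reflect technical as well as biological spread. In the file headers the samples are at 0 hours in a Th1 and Th2 time course, and the labels give no time.

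A cytokine that binds its receptor brings receptor-bound JAK kinases together, and these phosphorylate the receptor tails. STAT proteins dock there, are phosphorylated on a tyrosine, pair through their SH2 domains and enter the nucleus, where they bind DNA. In CD4 T cells the members are known for different cytokines. Stat6 acts after interleukin-4 and interleukin-13 and is needed for the Th2 fate, Stat4 acts after interleukin-12 and favours the Th1 fate, and Stat3 acts after interleukin-6, interleukin-21 and interleukin-23. Stat5a and Stat5b act after interleukin-2 and interleukin-7, and Stat2 joins Irf9 in the complex formed after type I interferon. SOCS proteins and phosphatases turn the signal off.

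Stat5a and Stat5b are close copies of each other, and the sequence they share bears on how fragments could be assigned to either. Between the reference transcripts of GENCODE release 21, their coding sequences were 90.8% identical over 2291 aligned bases. The other 14 pairs of members were between 57.6% and 65.0% identical. The longest run of bases common to Stat5a and Stat5b was 324 bases, from coding base 571 to coding base 894 of Stat5a. Both ends of that run are shown, 60 bases to each side, 5′ to 3′ in the direction of transcription. The capital marks the single base that differs in each window and that ends the run. At the start of the run, coding bases 511 to 630 (mm10, chromosome 11, Stat5a on the plus and Stat5b on the minus strand) read as follows.
Stat5a: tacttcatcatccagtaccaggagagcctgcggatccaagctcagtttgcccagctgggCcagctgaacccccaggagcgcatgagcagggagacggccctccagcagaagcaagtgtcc
Stat5b: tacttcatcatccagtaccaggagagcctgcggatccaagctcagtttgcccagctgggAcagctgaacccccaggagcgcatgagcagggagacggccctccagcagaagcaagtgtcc
At the end of the run, coding bases 835 to 954 read as follows.
Stat5a: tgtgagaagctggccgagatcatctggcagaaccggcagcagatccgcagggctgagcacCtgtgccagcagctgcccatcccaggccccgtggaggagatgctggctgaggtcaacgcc
Stat5b: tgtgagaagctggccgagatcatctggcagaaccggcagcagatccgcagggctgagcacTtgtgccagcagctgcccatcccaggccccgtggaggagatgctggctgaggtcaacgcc
A fragment that lies wholly within the run matches both genes, and the counting command names no option for fragments aligned to more than 1 place. In all, 608 stretches of 50 bases were common to the transcripts of both genes, which is 8.21% of those of Stat5a and 10.98% of those of Stat5b. No stretch of that length was common to any of the other 14 pairs, whose longest common run was 12 to 23 bases. The counts of Stat5a and Stat5b are therefore uncertain in all the sequence they share, of which the run is a part.

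A count in these tables is the number of fragments that the authors assigned to the annotated strand of a gene, and the 4 libraries held 1452053 to 2351916 of them. Genes that overlap an exon of an opposite-strand gene held 88.6% ± 1.06 of all counts (SD, n = 4). Where such an opposite gene was not protein-coding, it had the higher count density in every library in 77.1% of 1742 pairs with a coding gene. Which strand the library chemistry reads first is not given in the sources used here. If it is the one opposite to the counting setting, the fragments counted for a gene come from the strand opposite to its transcripts. Every level, order and marker value below is thus a count density on the annotated strand that may be antisense signal, and none was read as an amount of transcript. In these bulk samples fewer cells of a type and less RNA per cell cannot be told apart. TPM was computed here from the counts and the exon lengths, and is the scale on which genes of different length are compared.

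All 6 STAT genes were counted in all 4 libraries, with 249, 320, 263 and 147 fragments between them in replicates 1 to 4, or 123 ± 17.0 CPM (fragments scaled by the library total; SD, n = 4). Stat6 had the highest level and Stat4 the lowest, and Stat5b, Stat3, Stat5a and Stat2 lay between them. Stat6 alone made up 37.7% ± 4.15 of the summed TPM of the 6 genes. Every member had a mean of at least 1 TPM, a level reached by 34.0% of all 21764 protein-coding genes. The median of the 6 means was 4.6 TPM, beside a median of 0.144 TPM over all protein-coding genes and 3.43 TPM over the 7926 of them that had a count in every library.

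Stat6 (ENSMUSG00000002147.18, mm10 chromosome 10, 127642986 to 127660957, plus strand) had 58, 91, 73 and 45 fragments in replicates 1 to 4. Its levels were 9.17, 13.9, 12.7 and 10.7 TPM, with a mean of 11.6 ± 2.11 TPM (SD, n = 4). It was the highest of the 6 STAT genes in each of the 4 libraries, and 91.3% of protein-coding genes had a lower mean.

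Stat5b (ENSMUSG00000020919.11, chromosome 11, 100780731 to 100850724, minus strand) had 38, 60, 51 and 22 fragments. These gave 4.77, 7.29, 7.06 and 4.14 TPM, a mean of 5.82 ± 1.59 TPM (SD, n = 4), with replicates 2 and 3 above replicates 1 and 4. Its near copy Stat5a (ENSMUSG00000004043.14, chromosome 11, 100859351 to 100885169, plus strand) had 55, 43, 24 and 13 fragments. Its levels were 5.37, 4.06, 2.58 and 1.90 TPM, with a mean of 3.48 ± 1.55 TPM (SD, n = 4), and replicate 1 was 2.82 times replicate 4. The starts of the 2 genes face away from each other, 8626 bases apart.

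Stat3 (ENSMUSG00000004040.16, chromosome 11, 100885098 to 100939540, minus strand) had 63, 83, 85 and 51 fragments over its 9527 bases of exon, the longest of the 6. Its levels of 4.60, 5.87, 6.84 and 5.58 TPM had a mean of 5.72 ± 0.919 TPM (SD, n = 4) and the narrowest range of the 6 genes, 1.49-fold. In fragments not divided by length it was the first of the 6, at 36.0 ± 6.05 CPM against 33.7 ± 5.55 CPM for Stat6, and these ranges overlap. Stat2 (ENSMUSG00000040033.16, chromosome 10, 128270559 to 128292849, plus strand) had 28, 35, 24 and 15 fragments. This gave 3.29, 3.98, 3.10 and 2.64 TPM, with a mean of 3.25 ± 0.555 TPM (SD, n = 4).

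Stat4 (ENSMUSG00000062939.11, chromosome 1, 51987148 to 52107189, plus strand) had 7, 8, 6 and 1 fragments, too few for a firm level. These are 1.26, 1.39, 1.19 and 0.269 TPM, with a mean of 1.03 ± 0.512 TPM (SD, n = 4). A single fragment of Stat4 was worth 0.174 to 0.269 TPM, so the value in replicate 4 rests on 1 fragment. Replicate 4 was the lowest for Stat4, Stat5a, Stat5b and Stat2, and it was also the library with the fewest counts.

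**Figure D1:**
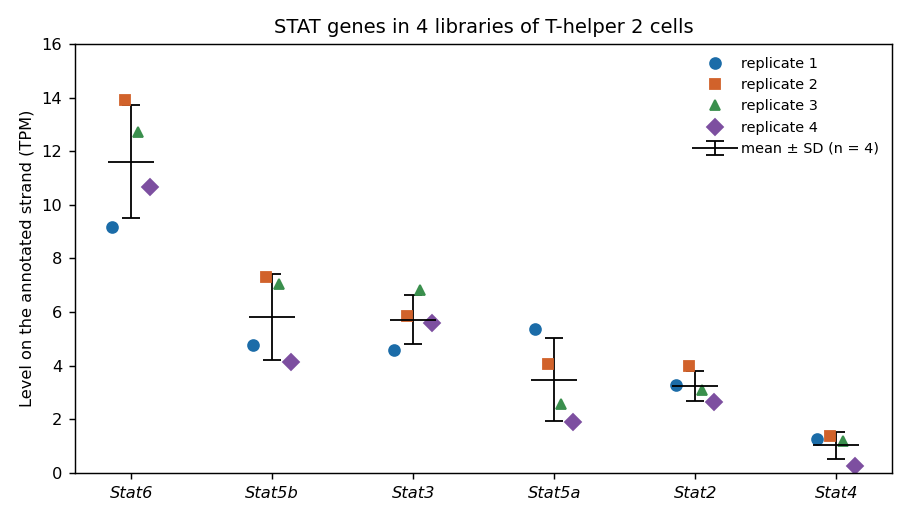
Level of each STAT gene (vertical axis, TPM on the annotated strand) in the 4 libraries, with genes on the horizontal axis in order of their mean. Points are single libraries, the long bar is the mean and the error bar 1 SD (n = 4); Stat6 is above the other genes in every library, and Stat4 is at or under 1.39 TPM.

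The levels fell into an order in which Stat6 came first and Stat4 last in every library, while no pair of neighbours between them kept its order in all 4. Differences in log2(TPM + 0.1) were tested for all 15 pairs by flipping the sign of each library's difference in all possible ways (an exact two-sided permutation), where the smallest possible p is 0.125, so no pair could pass 0.05. In 11 pairs the difference had the same sign in all 4 libraries, and each of these had p = 0.125 in the exact permutation (0.170 after Benjamini-Hochberg adjustment over the 15). Stat6 exceeded Stat5b by 1.01 ± 0.23 and Stat3 by 1.00 ± 0.16 on the log2 scale (SD, n = 4). From summed counts per exon length these are 1.96-fold (exact Clopper-Pearson 95% interval 1.62 to 2.39) and 2.05-fold (1.73 to 2.43). Stat6 over Stat2 was 3.52-fold (2.79 to 4.47), and Stat6 over Stat4 was 10.7-fold (6.91 to 17.3). Stat2, next to last, exceeded Stat4 by 1.74 ± 0.77 on the log2 scale, or 3.03-fold (1.90 to 5.05).

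The other 4 pairs did not keep a sign in all libraries. Stat5b and Stat3 differed by -0.004 ± 0.30 on the log2 scale (SD, n = 4; exact permutation p = 1). Stat5b over Stat5a was 0.79 ± 0.68 and Stat3 over Stat5a was 0.80 ± 0.80, both with exact permutation p = 0.25 and both higher in 3 of 4 libraries, the exception being replicate 1. Stat5a and Stat2 differed by 0.002 ± 0.50 (exact permutation p = 1), with Stat5a higher in 2 libraries. On the summed counts, the exact 95% intervals were 0.857 to 1.27 for the ratio of Stat5b to Stat3 and 0.844 to 1.44 for that of Stat5a to Stat2. Stat5b over Stat5a was 1.63-fold (1.29 to 2.06) and Stat3 over Stat5a 1.56-fold (1.27 to 1.93), so these ratios exceeded counting error in the sums without keeping their direction in replicate 1. A p that misses 0.05 here does not show that 2 genes were equal, since no pair could pass.

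Stat5a was the only 1 of the 6 STAT genes whose counts varied between libraries by more than counting error. Its fragments per Stat5b fragment were 1.45, 0.717, 0.471 and 0.591 in replicates 1 to 4, so that Stat5a was ahead of Stat5b in replicate 1 and behind it in the other 3. Per fragment of Stat3 they were 0.873, 0.518, 0.282 and 0.255. A chi-square test of each gene's counts against the library totals gave 17.6 for Stat5a, with a Benjamini-Hochberg adjusted p of 0.00208 over the 9702 genes with a summed count of at least 20. Of all those genes 53.5% were called at an adjusted p of 0.05, so a call is common in these libraries. Among the 4106 genes with a summed count of 50 to 300 the share was 47.9%. The adjusted p for Stat5a was 0.0934 when replicate 1 was left out.

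For the other members the same chi-square was lower. It was 7.95 for Stat5b (adjusted p = 0.0789), 6.13 for Stat3 (adjusted p = 0.152), 5.69 for Stat6 (adjusted p = 0.178), 2.86 for Stat4 (adjusted p = 0.471) and 1.48 for Stat2 (adjusted p = 0.725). The median over the 6 members was 5.91 and that over all genes tested was 9.95. These medians were not matched for count, on which this chi-square depends, and the members had summed counts of 22 to 282. In TPM, Stat5a varied by 44.6% of its mean, where counting error alone gives 17.2%. Stat4 varied by 49.9%, where counting error gives 42.6%, and Stat2 by 17.1%, where it gives 19.8%.

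On chromosome 11, Stat3 and Stat5a are transcribed toward each other and their last exons overlap, and on chromosome 10 the end of Stat6 overlaps the end of Nab2 in the same manner. Stat2, Stat4 and Stat5b overlap no exon of an opposite-strand gene. The overlaps are short. Stat3 and Stat5a share 72 bases, which are 0.756% of the exon bases of Stat3 and 1.01% of those of Stat5a. Stat6 and Nab2 share 40 bases, which are 0.909% of the exon bases of Stat6 and 1.36% of those of Nab2.

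**Figure D2:**
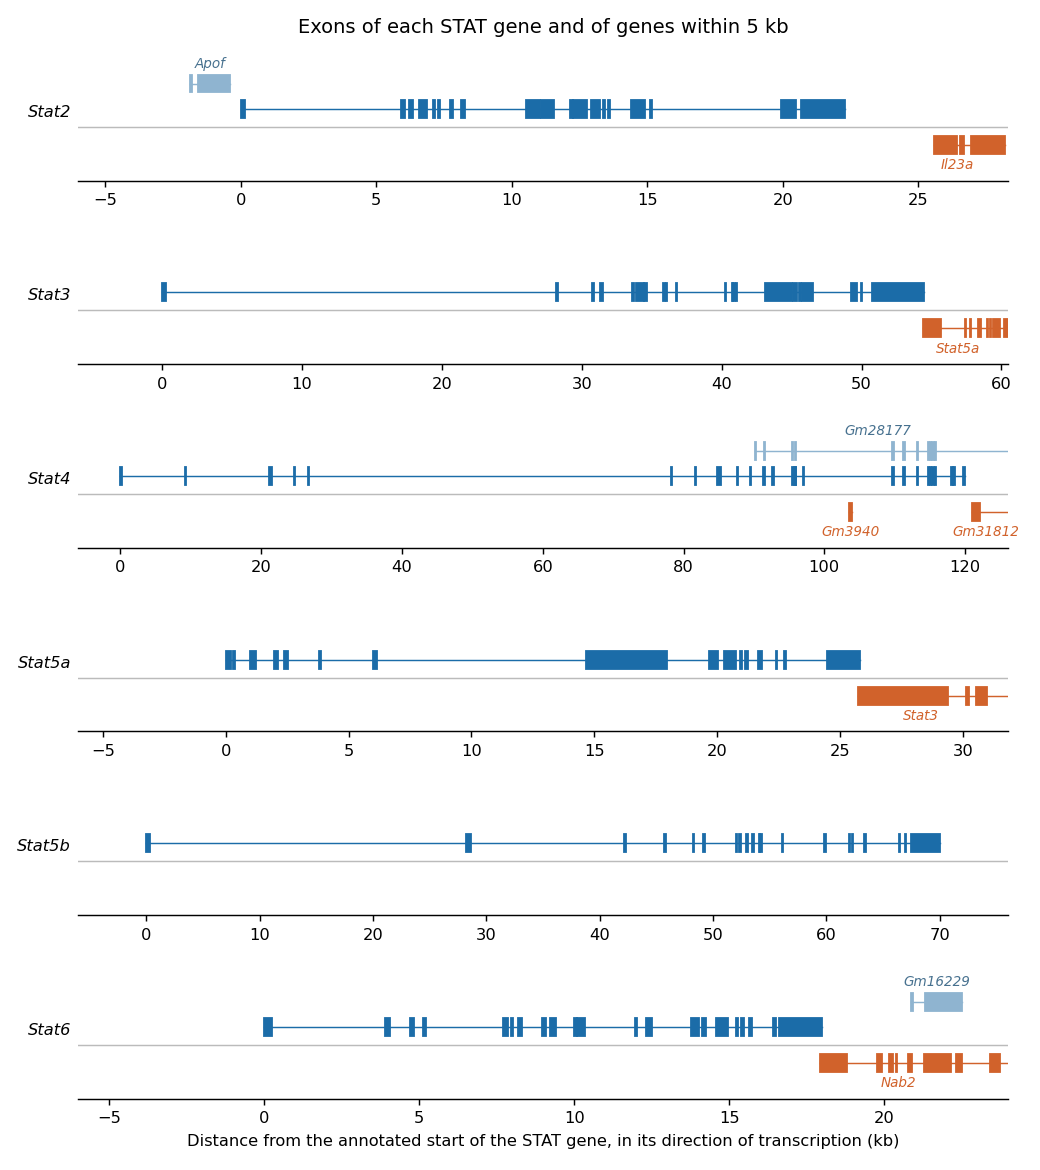
Exons of each STAT gene (dark blue) and of the genes within 5 kb, against distance in kb from the annotated start of the STAT gene in its own direction of transcription. Genes of the same strand (light blue) are drawn above the grey line and those of the opposite strand (orange) under it; only Stat3, Stat5a and Stat6 have an opposite-strand exon overlap, each at the end of the gene, and Stat5b has no gene within 5 kb.

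Stat6 had fewer fragments than its opposite gene in every library. Nab2 encodes a corepressor of the EGR transcription factors (ENSMUSG00000025402.12, chromosome 10, 127660918 to 127668568, minus strand). Against the 58, 91, 73 and 45 fragments of Stat6, Nab2 had 237, 212, 290 and 157 in replicates 1 to 4, or 115 ± 25.6 CPM. The count density of Stat6 was 16.4%, 28.7%, 16.8% and 19.1% of that of Nab2, and all 4 densities of Stat6 were below all 4 of Nab2. The log2 ratio of density, Stat6 over Nab2, was -2.33 ± 0.37 (SD, n = 4; exact two-sided permutation p = 0.125, adjusted over 2 pairs 0.25). Summed over libraries, Nab2 was 5.02-fold denser than Stat6 (exact 95% interval 4.38 to 5.78). This is an order of counts, and because the strand of the library is unknown it does not give the order of the transcripts.

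Neither Stat3 nor Stat5a was denser than the other in all 4 libraries. The log2 ratio of density, Stat3 over Stat5a, was -0.22, 0.52, 1.39 and 1.51 in replicates 1 to 4. Stat3 was thus the denser in replicates 2, 3 and 4 and Stat5a in replicate 1. The mean ratio was 0.80 ± 0.81 (SD, n = 4; exact permutation p = 0.25, adjusted 0.25), and summed over libraries Stat3 was 1.56-fold denser (1.27 to 1.93).

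**Figure D3:**
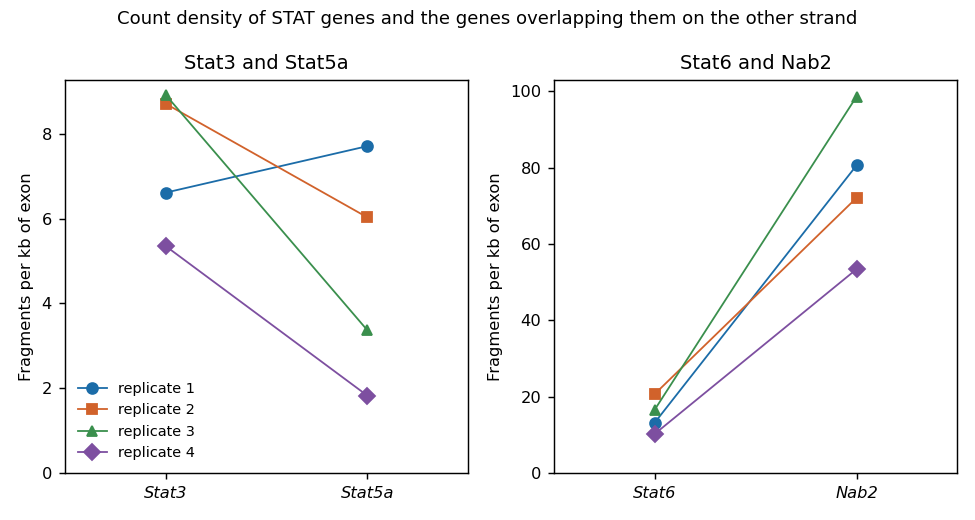
Fragments per kb of exon (vertical axis, linear from 0) of each STAT gene and of the gene that overlaps it on the other strand, with 1 line for each library. Nab2 is above Stat6 in all 4 libraries, and replicate 1 is the one library in which Stat3 is below Stat5a.

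Among all protein-coding genes that overlap each other on opposite strands, with at least 20 counts in the pair, 1 of the genes was denser in every library in 88.3% of 1195 pairs. Stat6 and Nab2 belong with that majority, and Stat3 and Stat5a with the rest. A log2 ratio as large as that of Stat6 and Nab2, in either direction, was found in 63.5% of the 1195 pairs, whose median size was 3.13. None of the 6 STAT genes shares exon bases with an opposite gene that is not protein-coding.

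**Figure D4:**
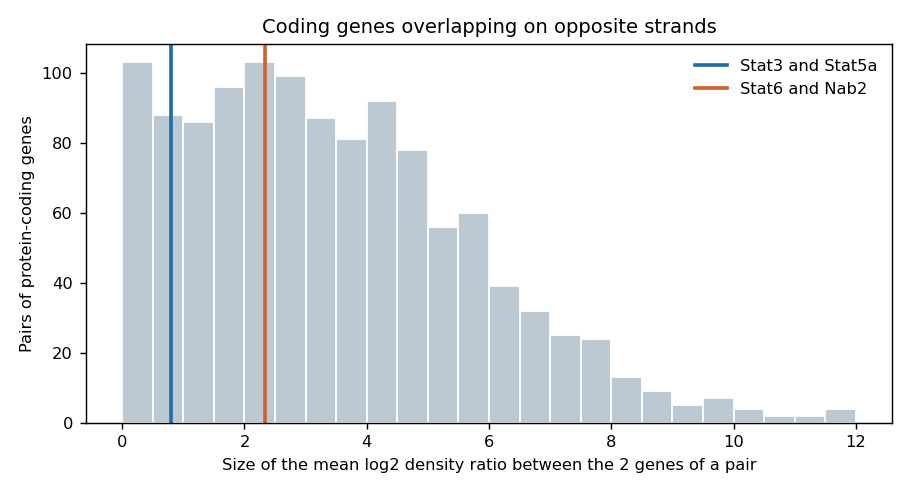
Number of pairs of overlapping protein-coding genes (vertical axis) by the size of the mean log2 ratio of count density within the pair (horizontal axis, n = 1195 pairs). Vertical lines mark Stat3 and Stat5a at 0.80 and Stat6 and Nab2 at 2.33, both under the median of 3.13.

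The surroundings of Stat6 held far more fragments than Stat6 itself. Gm16229, an antisense RNA gene on the strand of Stat6 that starts 2881 bases after its end, lies with 85.2% of its exon bases across exons of Nab2. Stat6 had 33.7 ± 5.55 CPM, against 961 ± 116 CPM for Gm16229 (SD, n = 4), which had 2351, 1938, 1899 and 1350 fragments in replicates 1 to 4. Nemp1, a nuclear envelope protein gene on the same strand, overlaps the other end of Nab2 by 151 bases and had 28, 36, 33 and 15 fragments. Gm16229 and Nab2 share 1050 exon bases on opposite strands, out of 1232 for Gm16229 and 2941 for Nab2. How many of the fragments given to either belong to the other was not tested.

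Around Stat4, 3 noncoding genes lay within 5 kb. Gm28177, a processed transcript of the same strand, shares 1033 exon bases with Stat4, which are 26.7% of the exon bases of Stat4 and 29.2% of its own. Stat4 had 7, 8, 6 and 1 fragments, against 20, 20, 7 and 6 for Gm28177, and was behind it in each library. The counting command has no option for assigning a fragment to more than 1 gene, so fragments in the shared bases may have gone to neither. Divided by the 2839 exon bases of Stat4 that it does not share, its counts give 1.4 ± 0.698 TPM (SD, n = 4), still the lowest of the 6 genes.

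Gm31812, a long noncoding RNA gene on the opposite strand, ends 931 bases past the end of Stat4. Stat4 had 2.62 ± 1.30 CPM, against 48.9 ± 14.5 CPM for Gm31812 (SD, n = 4), which had 141, 109, 100 and 45 fragments. Gm3940, a processed pseudogene on the opposite strand within an intron of Stat4, had 28, 9, 28 and 8 fragments. Of the 2 genes near Stat2, neither was counted in any library. These are Apof, an apolipoprotein gene, and Il23a, which encodes a subunit of interleukin-23. A count of 0 allows up to 1.28 to 2.07 CPM in a library at these depths. Stat2 and Stat6 themselves are 609601 bases apart on chromosome 10.

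Genes of the JAK-STAT pathway were placed on the same scale by 7 lists with 60 genes, grouped by role. A mean of at least 1 TPM was reached by 6 of 6 STAT genes, 44 of the 60 pathway genes and 34.0% of all protein-coding genes. Among the 40 that overlap no opposite-strand exon it was 28, beside 27.2% of all such coding genes. Among the 20 that do it was 16, beside 57.9% of all coding genes with such an overlap. In 18 of the 20 an opposite gene had more fragments than the pathway gene, as in 53.1% of the 4801 coding genes with such an overlap. The STAT genes had a mean log2 level of 2.01 ± 0.35, against 1.22 ± 0.23 for the 60 pathway genes (SD over 4 libraries).

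Receptors above the STAT proteins ranged from Il7r, the interleukin-7 receptor, at 37.4 ± 10.8 TPM to Il12rb1, a chain of the interleukin-12 receptor, at 1 fragment in all (SD, n = 4). Of 19 receptor genes, 13 had at least 1 TPM. Il6ra, which binds interleukin-6, had 21.8 ± 8.44 TPM, and Il12rb2, the other chain for interleukin-12, had 12.3 ± 3.16 TPM. Both of these overlap an opposite-strand gene with more fragments, at 259 ± 22.1 CPM for Il6ra and 88.5 ± 25.6 CPM for Il12rb2. Il2ra, the inducible chain of the interleukin-2 receptor through which Stat5a and Stat5b are activated, was second lowest at 0.324 ± 0.193 TPM. Stat6 had 11.6 ± 2.11 TPM, against 5.05 ± 1.57 TPM for Il4ra, the receptor chain on which it docks, and the opposite gene of Il4ra had 679 ± 78.4 CPM.

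All 4 kinases that phosphorylate STAT proteins had at least 1 TPM. Jak1 had 26.4 ± 7.77 TPM, more than any of the 6 STAT genes, while Jak2 had 3.89 ± 0.743, Jak3 3.87 ± 1.11 and Tyk2 2.45 ± 0.837 TPM (SD, n = 4). Jak1 and Tyk2 overlap opposite-strand genes, which had 57.3 ± 15.5 CPM for Jak1 and 529 ± 49.9 CPM for Tyk2.

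Of the 8 genes in the list of feedback inhibitors, which encode CIS and SOCS proteins, 3 had at least 1 TPM. Socs3, an inhibitor of Stat3 signalling, had 52.6 ± 8.0 TPM (SD, n = 4) from 788 fragments in all and overlaps no opposite-strand exon. It was second to Foxp3 among the 60 genes. Socs1, which acts on several JAK kinases, had 2.19 ± 2.85 TPM from 12 fragments in all, and Socs4 had 1.63 ± 0.556 TPM. Socs6, at 0.236 ± 0.285 TPM, and Socs2, with no fragment in any library, were the lowest.

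PIAS proteins, which restrain STAT proteins in the nucleus, lay between 1.17 ± 0.844 TPM for Pias1 and 1.68 ± 0.749 TPM for Pias4 (SD, n = 4). Between them were Pias2 at 1.20 ± 1.02 and Pias3 at 1.20 ± 0.338 TPM. These rest on few fragments, 8, 17, 18 and 1 for Pias1 and 6, 14, 0 and 12 for Pias2 in replicates 1 to 4. Of the 5 phosphatases, Ptprc (CD45) had 22.7 ± 5.21 TPM, Ptpn6 (SHP-1) 21.7 ± 5.15 TPM and Ptpn2, which acts on nuclear STAT proteins, 7.56 ± 1.49 TPM (SD, n = 4). Ptpn6 overlaps an opposite-strand gene with 1504 ± 126 CPM. Ptpn1 had 3.81 ± 1.29 TPM and Ptpn11 1.16 ± 0.448 TPM.

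All 5 partners and cofactors had at least 1 TPM. Nmi, which binds STAT proteins, had 11.7 ± 4.75 TPM, the acetyltransferase gene Ep300 had 4.95 ± 0.511 and Irf9 had 4.18 ± 1.06 TPM (SD, n = 4). Stat2, at 3.25 ± 0.555 TPM, was within 1 TPM of this partner of its complex. That is not particular to Irf9, since the receptor gene Il6st (2.99 ± 0.808 TPM) and Jak2 (3.89 ± 0.743 TPM) were nearer. Crebbp, a relative of Ep300, had 2.45 ± 1.05 TPM and Ncoa1, a coactivator bound by Stat6, 1.21 ± 0.361 TPM.

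Of 15 genes that STAT proteins are known to act on in T cells, 10 had at least 1 TPM, and 10 overlap an opposite-strand exon. Foxp3, the transcription factor of regulatory T cells and a target of Stat5a and Stat5b, had 199 ± 4.99 TPM, and it overlaps Ccdc22 on the other strand, which had 9.55 ± 6.61 CPM (SD, n = 4). Foxp3 itself had 524 ± 28.0 CPM, and whether these fragments are of Foxp3 transcripts or from the other strand cannot be told apart. Irf1 had 21 ± 4.73 TPM and Usp18, an interferon-induced gene acted on by Stat2, 16.3 ± 3.78 TPM, each with an opposite gene of more fragments. Tbx21, the Th1 factor downstream of Stat4, and Irf8 had no fragment in any library. Gata3, the Th2 factor downstream of Stat6, had 5.87 ± 2.08 TPM, and Gm13256, opposite to it, had 160.5 ± 30.2 CPM.

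**Figure D5:**
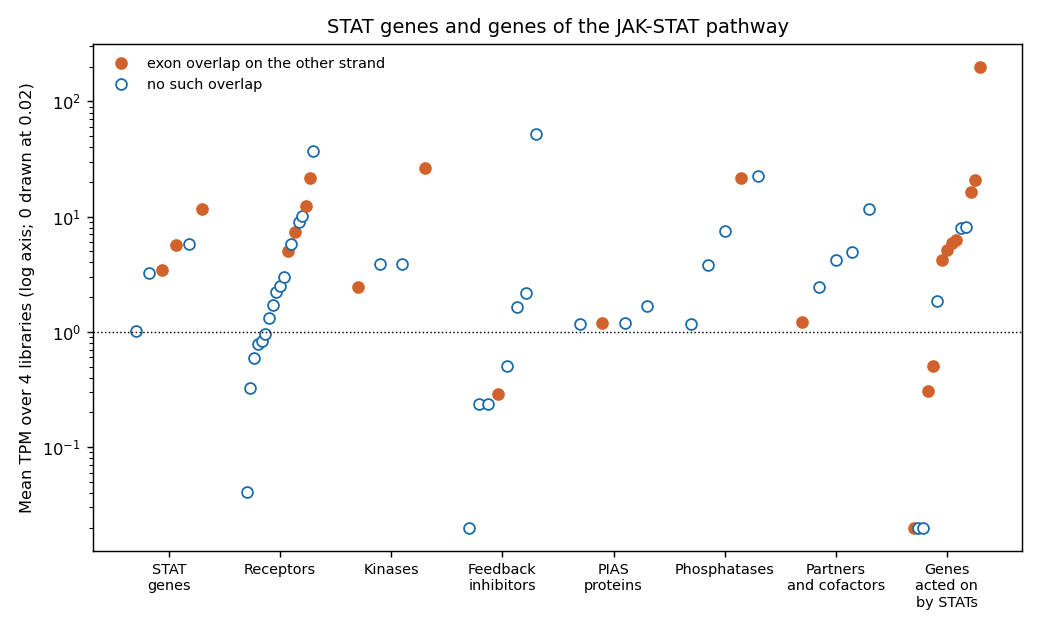
Mean TPM over the 4 libraries (vertical axis, log scale) of the STAT genes and of the genes of 7 pathway lists, ordered by level within each list. Filled points overlap an opposite-strand exon and open points do not, genes with no fragment are drawn at the bottom and the dotted line marks 1 TPM; all 6 STAT genes and 44 of the 60 others are on or above it.

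The pathway genes closest in level to each STAT gene were found by the root mean square difference in log2(TPM + 0.1) over the 4 libraries, among the 60 genes. For Stat6 these were Il12rb2 (0.373) and Il21r, the interleukin-21 receptor (0.475). For Stat3 they were Ep300 (0.253) and Ptpn2 (0.399), and for Stat5b Ep300 (0.351) and Il4ra (0.397). Stat2 was nearest to Il6st, the shared chain of interleukin-6 family receptors (0.237), and to Jak2 (0.265), and Stat5a was nearest to the same genes at 0.561 for Il6st and 0.506 for Jak2. Stat4 had no gene nearer than Il13ra1, a chain of the interleukin-13 receptor (0.508), followed by Pias1 (0.549). With 4 libraries of 1 group, this likeness is mostly one of mean level.

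All 11 T cell markers had at least 1 TPM, beside 34.0% of all protein-coding genes, with a summed level of 450 to 640 TPM per library. An opposite-strand exon is overlapped by 2 of the 11. Of these 2, Cd247 had 174 ± 31.2 TPM (SD, n = 4), the highest of the 11 and the largest part of the sum. Of 9 Th2 markers 4 had at least 1 TPM, a share near that of all coding genes, with a sum of 24.4 to 33.8 TPM. Of these 4, Gata3, Il4ra and Ptgdr2 overlap an opposite-strand exon. The Th2 cytokine genes Il5 and Il13 were at 0 in all libraries, whereas Il4 had 7.96 ± 5.76 TPM (SD, n = 4). Il1rl1, Ccr4 and Ccr8 had 2, 1 and 1 fragments in all. Whether the rank of Stat6 as the highest of the 6 STAT genes goes with a Th2 state was not tested.

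Markers of other cells reached 1 TPM in shares to be read against the 34.0% of all coding genes. Of the B cell genes, Cd79a had 39.0 ± 3.91 and Ighm 22.7 ± 7.53 TPM (SD, n = 4). These were the 2 of 6 such markers that had at least 1 TPM (sum 57 to 65.4 TPM), with Cd79b, Ms4a1 and Pax5 among those at 0. Of 6 macrophage and monocyte markers 3 did (119 to 136 TPM), with Lyz2 and Adgre1 at 0. Most of that sum was Csf1r, at 107 ± 10.7 TPM, which overlaps an opposite-strand exon, while Tyrobp had 14.1 ± 4.89 and Cd68 4.60 ± 2.84 TPM (SD, n = 4). Of the mast cell and basophil genes, Cpa3 had 42.4 ± 11.9 and Hdc 3.66 ± 0.883 TPM (SD, n = 4). These were the 2 of 5 such markers that had at least 1 TPM (37.8 to 64.3 TPM), with Fcer1a, Mcpt8 and Kit at 0. Of 5 erythroid markers 2 did (9.21 to 27.6 TPM), of 5 cytotoxic and NK markers 3 (2.94 to 12 TPM), of 3 endothelial markers 1 (5.19 to 9.72 TPM) and of 2 fibroblast markers none, both being at 0. The part of such cells in the levels of the STAT genes was not tested.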

How the data were processed

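The authors deposited a table of raw fragment counts for each sample. Per the file headers, these were made with featureCounts 1.4.6-p4 over exons of GENCODE mouse release 13, on mm10, with both ends aligned and strand setting 1, after alignment with STAR. The library kit is not given in the sources used here. The assay is labelled total RNA-seq, but its linked library protocol has poly(A) RNA in its name.

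Symbols were matched for 50376 of 50600 genes, and gene types and reference transcripts came from GENCODE release 21. From the deposited counts and exon lengths, TPM was computed here with pandas 2.3.3 in Python 3.11.15, and log2 values had 0.1 TPM added. Ratios of density had 0.5 count added. No library was a copy of another. Tests were an exact permutation of signs across the 4 libraries (2 of 16 sign patterns are the most extreme) and a chi-square test over all genes with at least 20 counts, with Benjamini-Hochberg adjustment. The chi-square test was run on simulated counts, whose only spread besides planted changes was counting error. The permutation was checked only on small sets of values with known answers. The chi-square test takes counting error as the only spread. Intervals are exact at 95% and, like the limit of 3 counts that a count of 0 allows, cover counting error only, since reads counted without molecular identifiers can be copies of 1 molecule. Coding sequences were aligned with Biopython 1.88.

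Alternatives were other added values, library sizes by edgeR 4.0.16 (TMM) and DESeq2 1.42.0 in R 4.3.3, other filters and overlaps, and leaving out each library. Of each pathway list the 3 genes of highest and the 2 of lowest mean TPM were named, with the 2 genes nearest to each member. Il4, Gata3, single markers and the noncoding neighbours were named beside these after their values were seen. The members and lists were chosen with earlier results of these data known. A STAT gene outside the 6 is not reported here.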

Additional observations from a re-analysis of the deposited data

Results flagged for a closer look

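In a group of 4 libraries a value was marked where its gap to the nearest other library exceeded Dixon's 95% critical value as a share of the whole range. Of 78 genes tested 9 were marked, where chance marks about 1 in 20, and none of them is among the 6 STAT genes. Among pathway genes, Il21r was lowest in replicate 1, at 4.82 TPM against 11.6 to 12.4 TPM in the others. Ifngr2, a chain of the interferon gamma receptor, was highest in replicate 2, at 4.06 TPM against 1.85 to 2.20 TPM from few fragments. Nmi was highest in replicate 4, at 18.8 TPM against 8.81 to 10.1 TPM. Bcl2, a survival gene that Stat5a and Stat5b act on, was highest in replicate 2, at 6.69 TPM against 3.18 to 3.53 TPM.

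Among markers, 3 T cell genes were highest in replicate 2. Cd3e had 16 TPM there against 8.08 to 8.70 TPM, Cd2 had 41.0 TPM against 25.6 to 27.6 TPM, and Lck had 45.3 TPM against 21.6 to 24.3 TPM. Trbc1 was lowest in replicate 1, at 30.7 TPM against 60.4 to 65.6 TPM, and Klrk1 was lowest in replicate 3, at 2.35 TPM against 5.23 to 5.72 TPM. Replicate 2 also had the highest Stat6, Stat5b, Stat2 and Stat4 levels, none of which met the same criterion.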

How the results depend on the processing

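Of 116 results under other settings than leaving out a library 109 were taken as kept, and of 137 without 1 library 132 were. For a difference or ratio this means its direction, and for the spread of a member its call. For a count of genes or pairs it means only a limited change in size. At 1 TPM in every library, 33 of the 60 pathway genes remained against 44, and that count was still taken as kept. Stat3 over Stat5a turned to -5.83 on the log2 scale when the 72 shared bases stood for the length of Stat5a, which by construction raises the density of Stat5a. Without 1 library, Stat5b minus Stat3 ranged from -0.11 to 0.14 (0.1354 without replicate 4) and Stat5a minus Stat2 from -0.23 to 0.15 (-0.2277 without replicate 1, -0.0073 without replicate 2). With 0.01 TPM added, Stat5a minus Stat2 was -0.001. The adjusted p for the spread of Stat5a ranged from 0.0009 to 0.0934 without 1 library, and its call was lost without replicate 1. The number of genes called for spread ranged from 3426 to 4144 without 1 library, against 5194 with all, and the 3426 without replicate 2 were 40.9% of 8369. Leaving out pathway genes with an opposite-strand overlap left 28 of 40 at 1 TPM or more, fewer because fewer genes are counted. At 1 TPM in every library, 1 feedback inhibitor and 0 PIAS genes remained. Dividing Stat4 by its unshared length, chosen after seeing the data, moved no call. No paired analysis was possible because there is 1 group. Depth limits Stat4 most, with 1 to 8 fragments a library.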
